A study of Mus musculus with 6 samples.

Results

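The Mir183, Mir96 and Mir182 gene cluster was followed in mouse pancreatic islets, the endocrine clusters of the pancreas. The 6 mature products of its hairpins (mmu-miR-183-5p, mmu-miR-183-3p, mmu-miR-96-5p, mmu-miR-96-3p, mmu-miR-182-5p and mmu-miR-182-3p) were taken by name, and all 6 were among the 1011 miRNAs listed. The groups were islets of HFD-fed and of NCD-fed mice, with 3 small RNA libraries each, called HFD 1 to 3 and NCD 1 to 3. The labels give both groups as primary islets and name no strain, age, sex, length of feeding, genotype or added agent. They also do not say whether a library came from 1 animal or a pool, so the p-values measure only the spread between these libraries.

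The 3 hairpins are cut from 1 primary transcript, first by Drosha in the nucleus and then by Dicer in the cytoplasm. Each hairpin gives a duplex of a 5p and a 3p strand, of which usually 1 is loaded into Argonaute and kept. The cluster is best known from sensory cells such as cochlear hair cells and photoreceptors, and mutations in the miR-96 seed cause hearing loss in mice and humans. The seed is the stretch of bases 2 to 8 that pairs with target messages. Both miR-96 and miR-182 are known to repress the transcription factor FoxO1, which also acts in beta cells.

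The mature sequences are shown because the products differ little in the seed. Capitals mark the seed, and the sequences are those of the deposited table, which equal the RefSeq entries for 6 of 6 products.
mmu-miR-183-5p: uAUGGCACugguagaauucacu
mmu-miR-96-5p: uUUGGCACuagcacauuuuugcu
mmu-miR-182-5p: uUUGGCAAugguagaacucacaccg
mmu-miR-183-3p: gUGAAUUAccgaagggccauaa
mmu-miR-96-3p: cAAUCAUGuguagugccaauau
mmu-miR-182-3p: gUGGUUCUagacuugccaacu

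The 3 5p products have near-identical seeds, whereas the 3p products share none with them or with each other. Counted from 1 at the 5′ end and written with the base of the first-named product first, miR-183-5p and miR-96-5p differ in the seed by A2U alone. miR-96-5p and miR-182-5p differ there by C8A alone, so both carry the same bases 2 to 7. miR-183-5p and miR-182-5p differ by A2U and C8A. Over the whole length these last 2 are the closer pair: without gaps from base 1, 18 of 22 bases are equal, against 13 of 22 for miR-183-5p and miR-96-5p and 12 of 23 for miR-96-5p and miR-182-5p. No other listed miRNA carries the bases 2 to 7 of any of the 6 products. Over 18 bases, with shifts of up to 2, each product has at least 5 mismatches to every listed miRNA outside the cluster, and no listed miRNA is its reverse complement.

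The hairpins are shown because the balance of their arms is described next. Capitals mark the 5p and then the 3p product, and the sequences are RefSeq's on GRCm38.
Mir183: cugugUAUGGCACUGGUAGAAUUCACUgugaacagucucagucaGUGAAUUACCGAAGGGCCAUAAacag
Mir96: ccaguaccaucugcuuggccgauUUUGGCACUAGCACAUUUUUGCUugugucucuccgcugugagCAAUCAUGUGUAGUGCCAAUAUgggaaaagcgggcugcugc
Mir182: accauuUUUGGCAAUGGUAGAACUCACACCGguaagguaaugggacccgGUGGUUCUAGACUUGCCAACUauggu

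All 3 lie on the minus strand of chromosome 6, Mir183 from 30169668 to 30169737, Mir96 from 30169446 to 30169551 and Mir182 from 30165918 to 30165992. Along the transcript the order is Mir183, Mir96 and Mir182. A gap of 116 bases parts the first 2 hairpins, and 3453 bases part Mir96 from Mir182. No hairpin overlaps another gene in GENCODE M21. The nearest genes are Nrf1, a transcription factor gene that ends 12460 bases below Mir182, and the long noncoding RNA gene Rncr4, which starts 3156 bases above Mir183 on the opposite strand.

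The cluster was a small part of the reads of each library, though 2 of its products ranked high among the miRNAs listed. Its 6 products held 39598, 31611 and 42176 reads in HFD 1 to 3, and 27576, 51415 and 30689 reads in NCD 1 to 3. As a share of all reads this was 0.371%, 0.335% and 0.381% in HFD and 0.385%, 0.460% and 0.378% in NCD islets. The means were 0.362% ± 0.0242 and 0.408% ± 0.0457 (here and below ± is the SD over n = 3 libraries per diet, unless it is named as an SE). HFD 3 lay above NCD 3, the lowest NCD library, so the diets overlapped. The difference, HFD minus NCD, was -0.0452 percentage points, -0.0189 without NCD 2 and 0.0231 on totals scaled by TMM (a factor per library, given below), so its sign depends on the scaling. By rank among all listed miRNAs, miR-183-5p stood between 24th and 31st and miR-182-5p between 27th and 30th in the 6 libraries, and miR-96-5p between 185th and 239th.

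Nearly all of these reads came from the 5p products of mir-183 and mir-182. Over the 6 libraries miR-183-5p made up 55.4% of the 223065 cluster reads, miR-182-5p 44.2% and miR-96-5p 0.358%, while the 3 3p products held 40 reads. The order of the 5p products was alike in most libraries: miR-183-5p exceeded miR-182-5p in 5 of 6, with NCD 3 the exception, and both exceeded miR-96-5p in each. miR-183-5p had from 69.6 to 315 times and miR-182-5p from 71.4 to 225 times the reads of miR-96-5p. Column purification and adapter ligation can favour some small RNAs over others. These ratios between different miRNAs, and those between the arms of a hairpin below, are thus of reads and not of molecules.

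**Figure D1:**
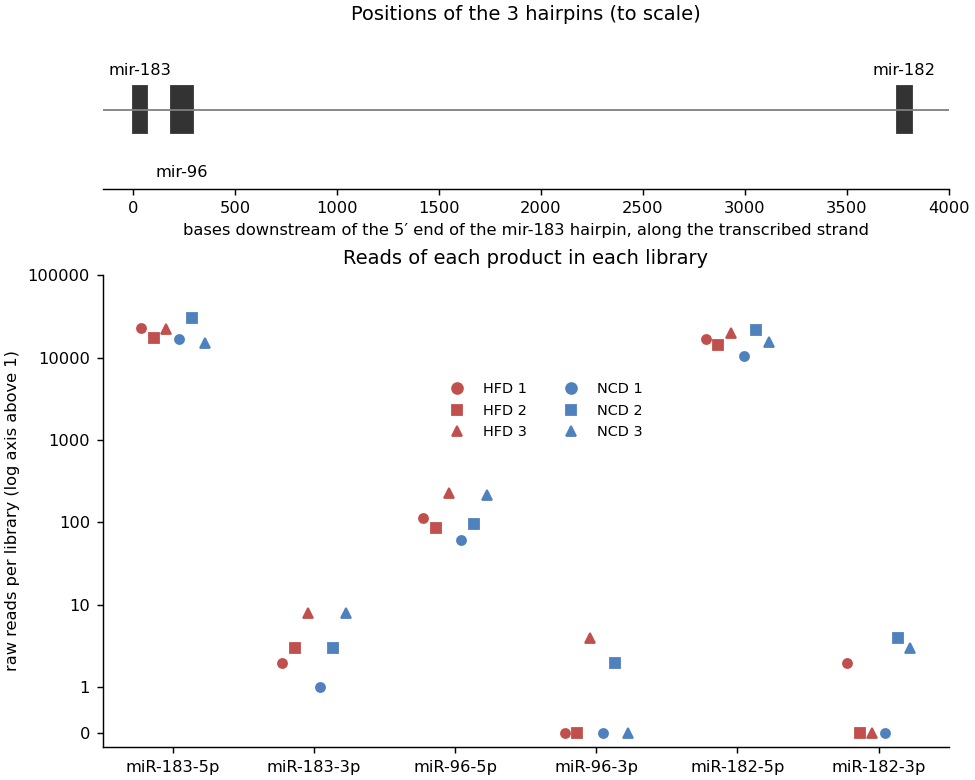
Top: the 3 hairpins drawn to scale by distance in bases from the 5′ end of mir-183. Bottom: raw reads of each product in each library on a log axis that is linear below 1, red for HFD and blue for NCD, with the shape giving the replicate number. The miR-183-5p and miR-182-5p points lie at 10551 reads or more, the miR-96-5p points between 61 and 227, and the 3p products at 8 reads or fewer.

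Within each hairpin the 5p strand was nearly the sole product counted. For mir-183 the 3p strand had 2, 3 and 8 reads in the HFD libraries, in the order of their numbers, and 1, 3 and 8 reads in the NCD libraries, beside 15042 to 29891 reads of the 5p strand. This was 0.0202% of the hairpin's reads over all libraries (95% Wilson interval 0.0137% to 0.0298%). For mir-182 the 3p strand had 2, 0 and 0 reads in HFD and 0, 4 and 3 in NCD libraries, or 0.00913% overall (0.0048% to 0.0173%). For mir-96 it had 0, 0 and 4 reads in HFD and 0, 2 and 0 in NCD libraries, or 0.745% overall (0.342% to 1.62%). Where the 3p count was 0, the true share could reach 0.015% to 0.0284% for mir-182 and 1.39% to 4.92% for mir-96, whose reads are far fewer. These intervals and limits cover counting error alone, and PCR copies of a read are not independent molecules.

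These are strong biases in reads for this table. Of 132 miRNAs that list both arms with at least 1000 reads between them, the median share of the lesser arm was 1.72%. In 12 of the 132 it was as low as in mir-183 or lower, and in 6 as low as in mir-182 or lower, each count including the hairpin itself. The mir-96 hairpin had too few reads to enter this comparison.

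Whether the arm balance depends on diet was not measurable at this depth. The log2 ratio of 5p to 3p, with 0.5 added to each count, was 12.25 ± 0.91 for mir-183 in HFD against 12.44 ± 1.44 in NCD islets. For mir-96 it was 6.98 ± 1.16 and 6.99 ± 1.75. In a library with a 3p count of 0, as in most for mir-96, this ratio is set by the 5p reads and the added 0.5. For mir-182 it was 14.27 ± 1.37 and 12.90 ± 1.27, a difference of 1.38 that rests on 9 reads of the 3p strand and was 0.50 with 5 added to each count. It lay between 0.87 (without HFD 3) and 2.15 (without HFD 1) when a library was left out, and was 2.11 without NCD 1. The two-sided exact permutation p was 0.9 for mir-183, 1 for mir-96 and 0.2 for mir-182, where 3 libraries against 3 cannot go below 0.1. With 5 added to each count the exact p for mir-182 was 0.1, the smallest possible. The difference for mir-183 was -0.19 and turned positive without HFD 3, NCD 1 or NCD 2. That for mir-96 was -0.0075 and turned positive with a larger added count and without HFD 3 or NCD 3.

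The diet comparison asks which islet miRNAs differ between HFD and NCD mice, and each 5p product was read against it. Of the 6 products, 3 passed the filter on low counts, namely the 5p products. None of these 3 was called by edgeR at an adjusted p of 0.05, where 0.246% of the 406 miRNAs tested were called. 0 of 3 had an unadjusted p under 0.05, against 8.37% of all tested. DESeq2 also called 0 of 3, against 0.743% of the 404 miRNAs to which it gave an adjusted p, and limma-voom 0 of 3, against 0.246%. The ranges of the diets overlapped for each of the 3, while 15.3% of all tested miRNAs had ranges that did not overlap. At these shares a count of 0 of 3 does not set the cluster apart. Levels below are CPM, or reads per 1000000, on library totals scaled by edgeR's TMM factor, and raw CPM is on the unscaled total.

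miR-183-5p is the product nearest the 5′ end and was the most abundant. It had 2525, 2170 and 1989 scaled CPM in HFD 1 to 3, and 2516, 3064 and 1070 scaled CPM in NCD 1 to 3. On this scale the HFD values fell within the NCD range, whose highest and lowest values are NCD 2 and NCD 3. The scaled means were 2228 ± 272 and 2217 ± 1030 CPM. On raw totals HFD 2 was the lowest library at 1823 CPM, below NCD 3 at 1852, and the SD was 150 in HFD and 416 in NCD. The log2 fold change was 0.0076 ± 0.37 (SE) with a 95% interval of -0.79 to 0.81 and an edgeR adjusted p of 0.994. Its sign was negative under 11 of 17 alternatives, among them RLE and upper quartile size factors and library totals only, and the value was -0.34 without NCD 3, -0.12 without HFD 1 and 0.31 without NCD 2.

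miR-182-5p, whose hairpin lies last in the transcript, was the second product by reads. It had 1872, 1808 and 1824 scaled CPM in the HFD and 1565, 2195 and 1096 in the NCD libraries. The HFD libraries differed by little, with a mean of 1835 ± 33.2 CPM, while the NCD libraries lay on both sides of them at 1619 ± 551 CPM. On raw totals the HFD values were spread more widely, at 1574, 1519 and 1814 CPM, so the closeness holds for the scaled values only. The raw NCD values were spread less widely than the scaled ones, at 1472, 1917 and 1899 CPM (SD 252). NCD 3 was thus the lowest library on scaled totals only. The log2 fold change was 0.18 ± 0.32 (SE) with a 95% interval of -0.50 to 0.86 and an edgeR adjusted p of 0.858. It was -0.11 with library totals only, -0.10 with limma-trend on log2(TPM + 1) and -0.044 without NCD 3, and it was 0.45 without NCD 2.

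miR-96-5p, the product tied to hearing, was counted at 114, 86 and 227 reads in the HFD and 61, 95 and 216 reads in the NCD libraries. In scaled CPM this was 12.7, 10.9 and 20.6 in HFD and 9.05, 9.74 and 15.4 in NCD islets. Replicate 3 was the highest library in both diets. The means were 14.7 ± 5.20 and 11.4 ± 3.46 CPM. The log2 fold change was 0.37 ± 0.42 (SE) with a 95% interval of -0.53 to 1.27 and an edgeR adjusted p of 0.742. It was -0.11 with library totals only, 0.02 without HFD 3, 0.15 without NCD 1 and 0.64 without NCD 3.

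These intervals set the reach of the comparison. They leave room for a HFD level from 0.577 to 1.75 times the NCD level for miR-183-5p, from 0.706 to 1.82 times for miR-182-5p and from 0.692 to 2.41 times for miR-96-5p. The SE of each was below the median SE of 0.44 over the 406 tested miRNAs. In islets as in any mixed tissue, fewer cells of a type and less RNA per cell cannot be told apart.

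**Figure D2:**
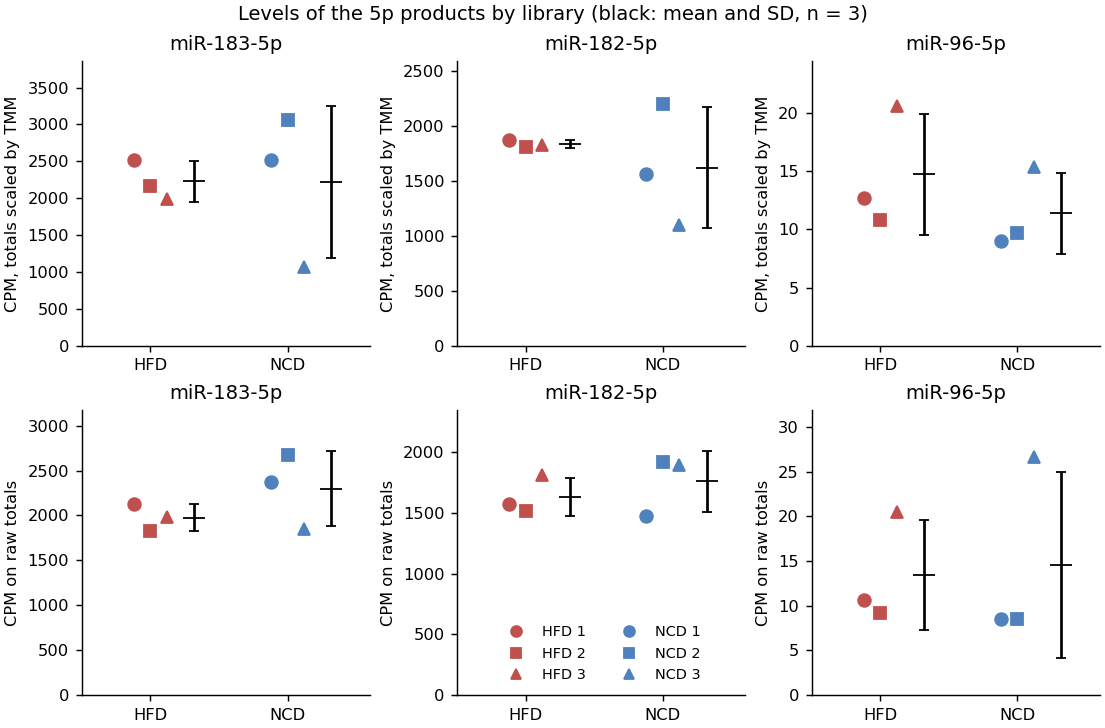
Levels of the 5p products in each library, in CPM on TMM-scaled totals (top) and on raw totals (bottom), with mean and SD (n = 3) in black. The diets overlap in each panel, NCD 3 is lowest for miR-183-5p and miR-182-5p on scaled totals, and replicate 3 is highest for miR-96-5p in both diets.

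The scaling of NCD 3 bears on these values. Its TMM factor was 1.73, against 0.84 to 0.995 in the other 5 libraries, and with unscaled totals the median log2 fold change over the 406 miRNAs was -0.37 in place of 0.03. On that scaling miR-183-5p lay at -0.22 and miR-182-5p and miR-96-5p at -0.11, each above the median. Library totals ran from 7166712 to 11172255 reads, and the limit set by a count of 0 (3 reads) ran from 0.213 to 0.445 CPM. Division by the factor of 1.73 lowers every scaled level of NCD 3. On these levels NCD 3 had the least of the 4 islet endocrine markers (miR-375-3p, miR-7a-5p, miR-7a-2-3p and miR-184-3p). Their sum was 260133 scaled CPM against 445674 to 598682 in the other 5 libraries. This low sum is not independent of the scaling, and on raw totals NCD 3 lay above HFD 1 and HFD 3. NCD 3 had the most of the 5 acinar markers, with 418 scaled CPM against 20.2 to 205. All 4 islet and 3 of 5 acinar markers were tested, none was called (0.246% of all tested were), and none of either list was at 0 in all libraries. Markers of other tissues peaked in other libraries. NCD 1 had the most of the liver marker, at 757 scaled CPM against 34.1 to 78.6 in the rest. By summed levels NCD 1 also led for endothelial, leukocyte and muscle markers, and HFD 2 for erythroid and for fibroblast and smooth muscle markers. Most of the fibroblast and smooth muscle sum came from 1 of its 4 miRNAs. The part of these cell markers in the cluster values was not tested. Measured against the islet markers, the cluster had 8.56, 7.32 and 8.60 reads per 1000 islet marker reads in the HFD and 6.83, 9.57 and 8.39 in the NCD libraries, so NCD 3 lay within the range of the others.

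The balance between the 5p products needs no scaling, since both terms of a ratio come from 1 library. miR-182-5p had 74.1, 83.3 and 91.7 reads per 100 reads of miR-183-5p in HFD 1 to 3, and 62.2, 71.7 and 103 in NCD 1 to 3. miR-96-5p had 5.028, 5.001 and 10.4 reads per 1000 of miR-183-5p in HFD and 3.596, 3.178 and 14.4 in NCD libraries. In both diets replicate 3 had the highest value of each ratio. The NCD values reached both lower and higher than the HFD values.

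None of the 3 ratios between 5p products differed between the diets by more than its spread. The log2 ratio of miR-182-5p to miR-183-5p was -0.27 ± 0.15 in HFD against -0.38 ± 0.37 in NCD islets. That of miR-96-5p to miR-183-5p was -7.28 ± 0.60 and -7.51 ± 1.20, and that of miR-182-5p to miR-96-5p was 7.01 ± 0.48 and 7.13 ± 0.87. The two-sided exact permutation p was 0.7, 0.6 and 0.8, and after adjustment over the 6 ratios compared, arms included, each was 1. Leaving out NCD 3 moved the differences from 0.10 to 0.31, from 0.22 to 0.91 and from -0.12 to -0.61. The difference changed sign without NCD 1 for miR-182-5p over miR-183-5p (-0.051), and without HFD 3, NCD 1 or NCD 2 for the ratios with miR-96-5p, where without HFD 3 they were -0.13 and 0.16.

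miR-96-5p was a larger share of the cluster in replicate 3 of both diets, which was noticed in the data. It made up 0.538% of the cluster reads in HFD 3 (95% Wilson interval 0.473% to 0.613%) and 0.704% in NCD 3 (0.616% to 0.804%). In the other 4 libraries it made up 0.185% to 0.288%, with upper bounds of at most 0.346%. The intervals hold counting error only, and libraries of 1 diet differed by more than that over the whole table. For miR-183-3p the 8 reads in each replicate 3 were the most of any library, but the Wilson intervals of its share of the hairpin overlapped with those of other libraries of the same diet. The labels do not tie the number 3 to a shared batch, litter or day, and the cause was not tested.

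**Figure D3:**
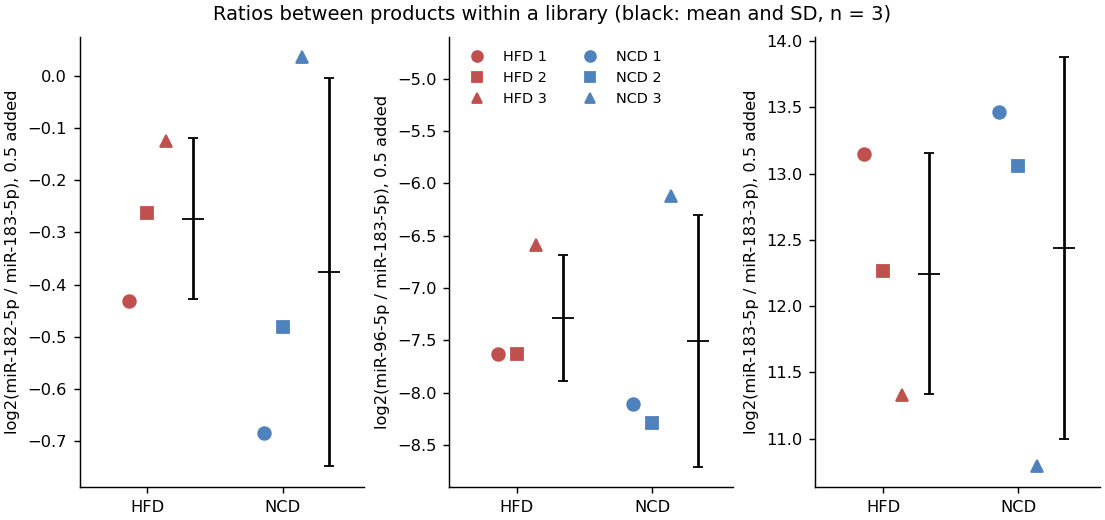
Log2 ratios between products within each library, with 0.5 added to each count, by diet, and with mean and SD (n = 3) in black. In both diets the triangle of replicate 3 is the highest in the first 2 panels and the lowest in the third, and the diets overlap in each panel.

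miR-182-5p was followed more closely by some miRNAs outside the cluster than by either other 5p product. Likeness was measured as the SD over the 6 libraries of the log2 ratio to miR-182-5p, with 0.5 added to each count, over the 112 other miRNAs tested with a mean of at least 100 CPM. The median SD was 0.42. The 5 most alike outside the cluster were miR-1839-5p (0.10), miR-379-5p (0.17), miR-200b-3p (0.18), miR-30e-3p (0.19) and miR-30f (0.19). miR-1839-5p had 1831, 1671 and 1752 scaled CPM in the HFD and 1298, 1891 and 1065 in the NCD libraries. It was picked for its steady ratio, so a profile like that of miR-182-5p follows from the choice. miR-183-5p stood 21st with an SD of 0.26, below the median, and 26 of all 405 other tested miRNAs had a smaller one. miR-96-5p, below the minimum level, had an SD of 0.63, and 194 of the 405 had a smaller one. The measure describes these 6 libraries, and the low reads of miR-96-5p add counting error to its value.

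Other miRNAs of neuroendocrine and sensory cells were read in the same way. Of 13 listed, 12 were tested, 0 rose and 0 fell by the edgeR test, and 6 had a positive log2 fold change, with a median of 0.01 against 0.03 over all tested. With 0.246% of all tested miRNAs called, 0 of 12 is no result about this list. The most abundant were miR-375-3p, the islet miRNA that restrains insulin secretion (log2 fold change -0.02 ± 0.42, SE), miR-7a-5p (0.37 ± 0.36), miR-7b-5p (0.36 ± 0.36) and miR-129-5p (-0.49 ± 0.32). Their edgeR adjusted p values were 0.977, 0.683, 0.686 and 0.609.

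**Figure D4:**
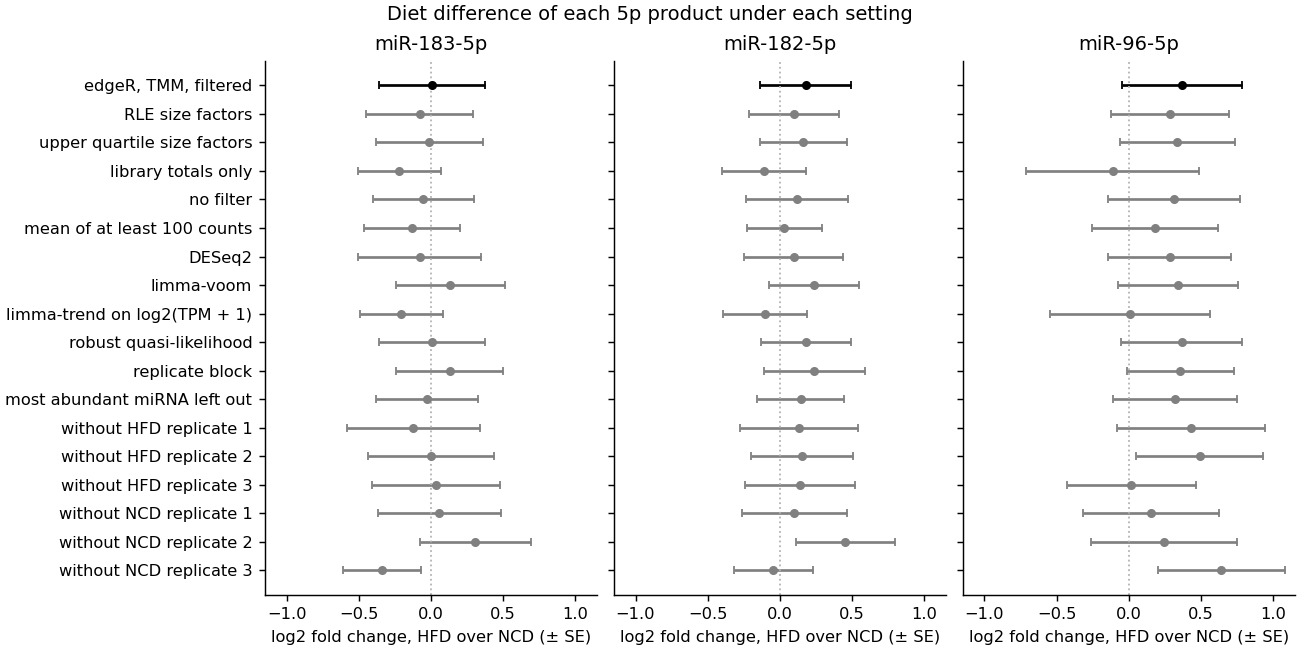
Log2 fold change of each 5p product, HFD over NCD, with its SE as the bar, under the reported edgeR fit (black) and the 17 alternatives (grey). miR-183-5p lies between -0.34 and 0.31, miR-182-5p between -0.11 and 0.45 and miR-96-5p between -0.11 and 0.64.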

How the data were processed

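Small RNA libraries of islets (3 HFD, 3 NCD) were made with a NEBNext small RNA kit from column-purified total RNA, per the labels' protocols. The sources used here do not give the aligner, counting tool, genome build or annotation release. The authors' deposited table holds raw read counts per mature miRNA, per the file headers. The deposited TPM values equalled CPM on each raw total to within a relative 4.61e-09 and were used in 1 alternative.

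Groups came from the sample descriptions. The whole table was fitted with edgeR 4.0.16 in R 4.3.3: filterByExpr (minimum count 10), TMM factors, estimateDisp, glmQLFit and glmQLFTest with diet as the only term, Benjamini-Hochberg adjustment over the 406 miRNAs tested, threshold 0.05. Rows below the filter held up to 0.0351% of the reads. The SE is the absolute log2 fold change over the root of F. Ratios used counts plus 0.5 and two-sided exact permutation tests, adjusted over 6 ratios. Alternatives were other size factors and filters, DESeq2 1.42.0, limma 3.58.1 (voom and trend), robust fitting, a replicate block, miR-375-3p left out and each library left out.

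The miRNAs named were all cluster members, those sharing a seed, the 5 most like miR-182-5p, the 4 most abundant of the neuroendocrine and sensory list and, as tissue markers, the 4 islet endocrine miRNAs. Members and lists were chosen with earlier results of these data known. Within a diet, chi-square per degree of freedom between libraries was 464 to 2277, far above sampling noise.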

Additional observations from a re-analysis of the deposited data

How the results depend on the processing

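No cluster miRNA was called under any of the 17 alternatives (lowest adjusted p = 0.568, miR-182-5p by edgeR without NCD 2), and the sign was kept under 16 for miR-96-5p, 14 for miR-182-5p and 6 for miR-183-5p. The log2 fold change of miR-183-5p, 0.0076 in the reported fit, was -0.078 with RLE size factors and with DESeq2, -0.0096 with upper quartile factors, -0.22 on unscaled library totals, -0.052 with all rows kept, -0.13 for rows averaging 100 counts or more, -0.20 with limma-trend and -0.025 without the most abundant miRNA, and lay between -0.34 and 0.31 over the fits that leave out a library. That of miR-96-5p was -0.11 with library totals only. That of miR-182-5p was -0.11 with library totals only and -0.10 with limma-trend, and lay between -0.044 and 0.45 without single libraries. The count of called miRNAs, 1 at first, was 0 with library totals only and with limma-trend, 6 with all rows kept and 3 with DESeq2, and was 0, 4 and 3 without NCD 1, NCD 2 and NCD 3 in turn and 1 without each HFD library.

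The difference in the arm ratio ran from -1.02 to 0.32 for mir-183, from -0.87 to 0.88 for mir-96 and from 0.87 to 2.15 for mir-182 without single libraries, and that of mir-96 was 0.028 and 0.14 with 1 and 5 added to each count. The differences in the ratios of miR-182-5p to miR-183-5p, of miR-96-5p to miR-183-5p and of miR-182-5p to miR-96-5p ran from -0.051 to 0.31, from -0.17 to 0.91 and from -0.61 to 0.22. The cluster's share of reads, HFD minus NCD, was -0.0452 percentage points, and -0.0601 to -0.0189 without single libraries. It was -0.125 as a share of reads other than miR-375-3p and 0.0231 on TMM-scaled totals. What causes these shifts was not tested.

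Libraries with the same replicate number deviated from their diet means with correlations of 0.14, -0.24 and 0.31 across miRNAs, of which 1 is below 0.1, so no pairing was assumed. With the replicate block the log2 fold changes were 0.13 for miR-183-5p, 0.36 for miR-96-5p and 0.24 for miR-182-5p, the count of called miRNAs was 1, and none of these 3 products was called. The 3p products, at 8 reads or fewer per library, limit any statement on arm balance by diet.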

Other observations

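The rise of miR-96-5p in replicate 3 of both diets was noticed in the data and set beside the other miRNAs. Its scaled level in replicate 3 was 1.75 times the mean of replicates 1 and 2 in HFD and 1.63 times in NCD islets, and on raw totals the values were 2.07 and 3.11 times. Of the 406 tested miRNAs, 22 (5.42%, with miR-96-5p) were at least as high in replicate 3 in both diets on the scaled level. On the scaled level the same values were 0.991 (HFD) and 0.583 (NCD) times for miR-182-5p and 0.847 and 0.383 times for miR-183-5p. On raw totals they were 1.17 and 1.12 times for miR-182-5p and 1.003 and 0.735 times for miR-183-5p. The 3 products of 1 transcript thus moved unequally on either scale, but the fall of miR-182-5p was seen on the scaled level only. The median over all tested miRNAs was -0.01 (HFD) and -0.03 (NCD) on the log2 scale, and 0.23 and 0.91 on raw totals.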
